A study of Mus musculus with 4 samples.

Results

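The genes described here are 10 genes of glucose uptake and glycolysis, chosen by name as rows of both RNA matrices: the glucose transporter genes Slc2a1 and Slc2a3, the hexokinase genes Hk1 and Hk2, the phosphofructokinase genes Pfkp and Pfkl, then Gapdh, Pkm, Ldha and the lactate exporter gene Slc16a3. They are 10 of the 32285 genes in the matrices, and each symbol matched 1 gene identifier. The assay was CITE-seq, in which the transcripts of a cell and the barcoded antibodies bound to its surface are sequenced together, and the cells were LSK cells (Lineage- Sca1+ c-Kit+, the gate that holds haematopoietic stem cells and early progenitors) sorted from mouse fetal liver at E17.5. The control library (WT) came from Bclaf1 f/f embryos, with floxed Bclaf1 alleles and no Cre. The knockout library (KO) came from Vav-Cre:Bclaf1 f/f embryos, in which Cre is driven by the Vav promoter, active in blood cells. Each library pooled 10 embryos of 1 genotype, with 20000 cells sorted and 10000 loaded. With 1 library per genotype nothing could be checked against replicates or tested, and every comparison is between these libraries. Presence of Cre and loss of Bclaf1 cannot be told apart. The 95% intervals in brackets describe counting error and nothing else.

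Cells take up glucose through SLC2A (GLUT) transporters, and hexokinase traps it as glucose 6-phosphate. Phosphofructokinase commits the sugar to glycolysis, GAPDH and pyruvate kinase carry later steps, lactate dehydrogenase turns pyruvate into lactate, and SLC16A3 (MCT4) exports lactate. Most of these steps are served by several isozymes with separate genes, so cells can differ in which isozyme they make. Several of the genes are textbook targets of the hypoxia-inducible factor HIF1, and a glycolytic, low-oxygen metabolism is often described for blood stem cells.

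The WT library held 5345 cells with a median of 22734 gene UMIs (unique molecular identifiers), and the KO library held 2676 cells with a median of 34187.5. Levels are UMIs summed over cells and given per 1000000 gene UMIs (CPM), and ratios are log2. The 3' tag method counts a molecule once whatever its length, so levels of different genes are set side by side without a length correction. Other differences in capture between genes were not tested, so shares of isozyme genes are shares of UMIs. Bclaf1 itself had 218 CPM (WT) and 75.8 CPM (KO). Kit had 200.4 and 219.7 CPM, and Ly6a, which encodes Sca1, had 12.8 and 9.60 CPM. Ly6g, a neutrophil marker, had no UMI in either library. The cells of both libraries shared 5 barcodes.

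Cells were placed in 4 surface gates by their CD150 and CD48 antibody counts and, separately, in lineage gates by the summed UMIs of marker genes, none of which is among the 10 genes. The erythroid gate, for example, needed at least 3 UMIs per 10000 from at least 3 of 10 red cell genes. These gates are ranges of a score, not cell types, and 40 WT and 31 KO cells lay between 0.8 and 1.25 times the erythroid cut. Cells past the erythroid list alone were 279 of the WT cells (5.22%) and 347 of the KO cells (13.0%). Cells past no lineage list were 4416 WT cells (82.6%) and 1856 KO cells (69.4%). Median Sca1 antibody counts were 49 (WT) and 97 (KO) in the erythroid gate, against 182 and 231.5 in cells past no list. Median CD117 counts were 1371 and 1897, against 682 and 974.5. The part of the Sca1 sort limit in the shares of these cells was not tested. Within the erythroid gate the median UMIs per 10000 from the stem cell list were 0.49 in WT and 0.52 in KO, and those from the granulocyte-monocyte list 0.19 and 0.17. The summed level of late red cell genes was lower in this gate (235 CPM in WT and 193 CPM in KO) than in cells past no list (859 and 766 CPM), and the source of those UMIs was not tested. CD150+CD48- cells, the usual surface definition of stem cells, had 1330 CPM of 10 stem cell markers in WT and 854 CPM in KO. With cells past a lineage list left out, these sums were 1463 and 1521 CPM.

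Over all LSK cells Gapdh was the most abundant of the 10 genes, with 1316 CPM (WT) and 1274 CPM (KO). Ldha followed with 477 and 521 CPM, and Pkm with 259.5 and 224 CPM. Both hexokinase genes and Pfkl were of middle level, with Hk1 at 49.3 and 72.4 CPM, Hk2 at 44.4 and 50.3 CPM, and Pfkl at 52.1 and 52.8 CPM. The transporter genes and Pfkp were scarcer. Slc2a3 had 17.8 and 20.8 CPM, Slc2a1 13.8 and 14.5 CPM, Pfkp 12.1 and 15.5 CPM, and Slc16a3 9.17 and 15.8 CPM. The order of these levels differed between the libraries in Hk1, which stood above Pfkl in KO and below it in WT, and among Slc2a1, Pfkp and Slc16a3, which lay close together in KO. Slc16a3 was the most unevenly spread of the 10 genes over cells: the 1% of cells with most Slc16a3 UMIs held 28.5% of them in WT and 21.2% in KO, against 4.92% and 4.14% for Gapdh.

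**Figure D1:**
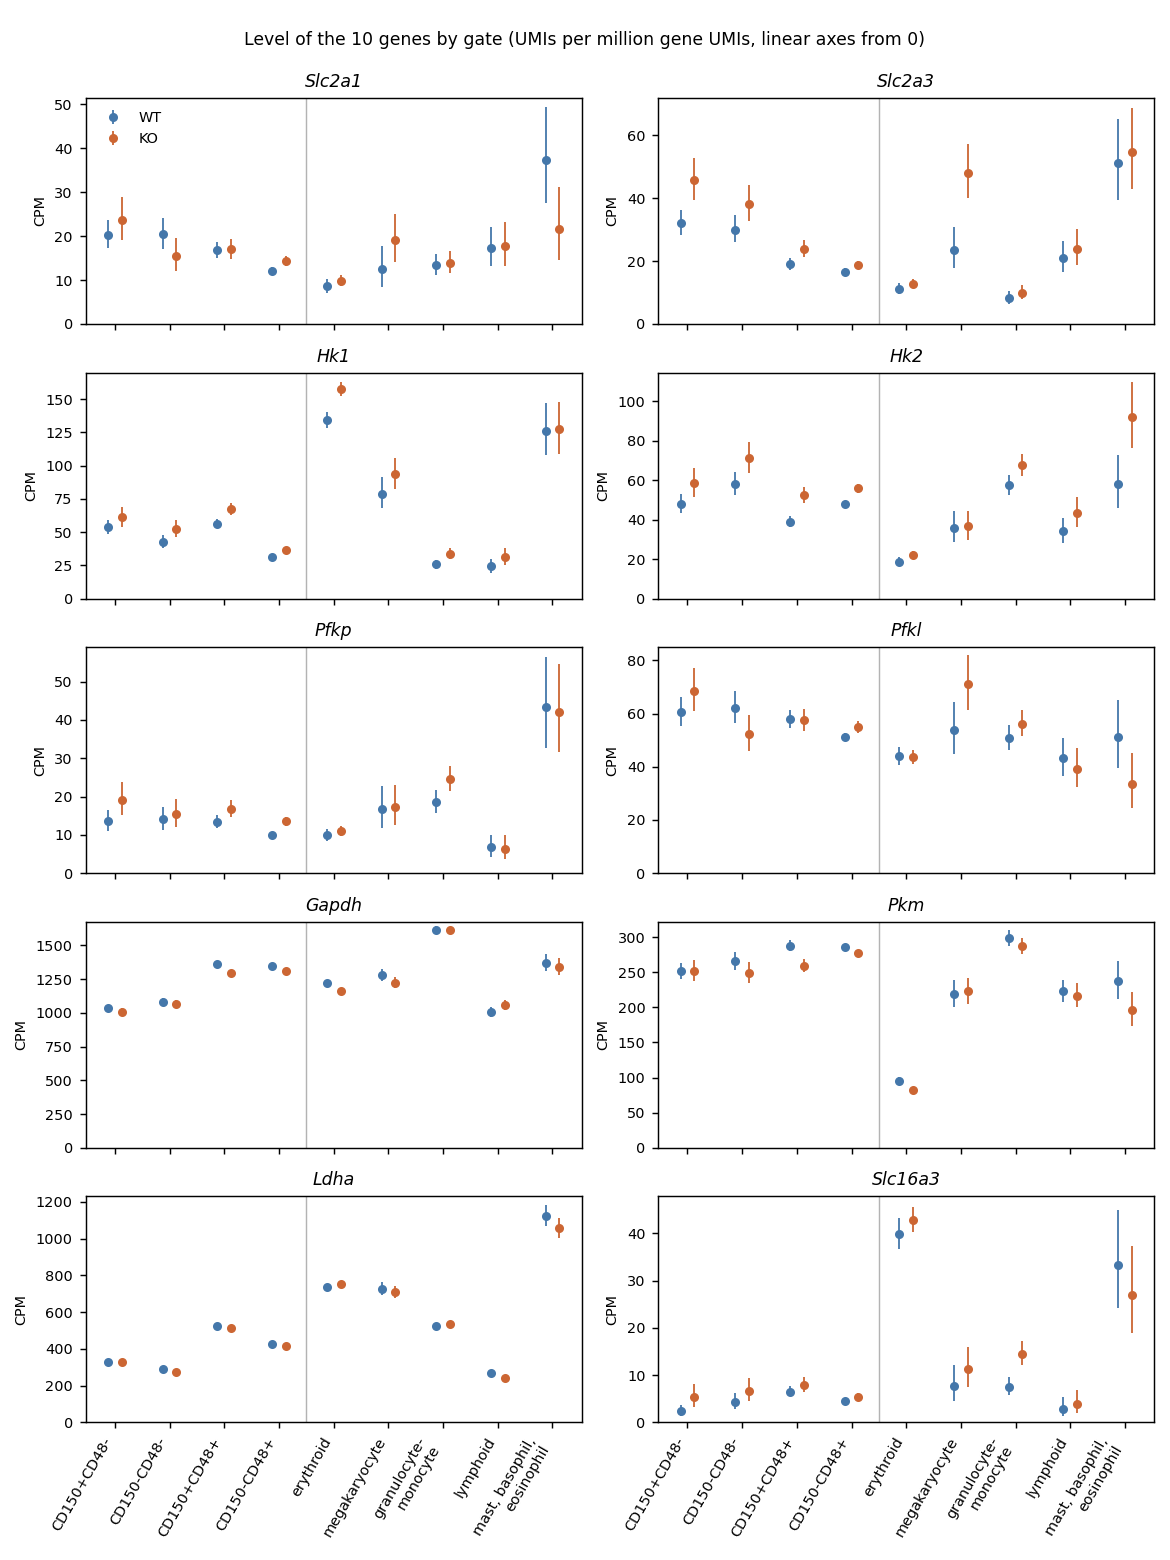
Level of each of the 10 genes (CPM) in WT and KO by gate, with bars for the exact Poisson 95% interval and linear axes from 0. Left of the grey line are surface gates without lineage-list cells, and right of it lineage gates. Hk1 and Slc16a3 are high in the erythroid and the mast, basophil and eosinophil gates, and Hk2 and Pkm are lowest in the erythroid gate of the gates drawn, in both libraries.

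Cells of the erythroid gate held isozyme transcripts in other proportions than cells past no lineage list, in both libraries. Hk1, the hexokinase of red cells and most other tissues, had 134 against 38.2 CPM in WT and 158 against 45.5 CPM in KO, the erythroid gate named first. The log2 ratio of erythroid over no list was 1.81 (1.74 to 1.89) in WT and 1.79 (1.72 to 1.86) in KO. Hk2, the insulin- and hypoxia-responsive hexokinase, went the other way, with 18.6 against 46.8 CPM in WT and 22.0 against 56.5 CPM in KO, ratios of -1.33 and -1.36. Hk1 therefore made up 87.8% (86.4% to 89.1%) of Hk1 and Hk2 UMIs in the WT erythroid gate and 87.7% in KO, against 44.9% and 44.6% in cells past no list.

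Pkm, the pyruvate kinase gene of most cells, had 95.3 against 282 CPM in WT and 82.8 against 269 CPM in KO in the same contrast, ratios of -1.57 and -1.70, the lowest of the 10 genes. Pklr, which encodes the pyruvate kinase of liver and red cells and is not among the 10 genes, had 48.7 against 0.240 CPM in WT and 55.4 against 0.530 CPM in KO. Pklr gave 33.8% (31.8% to 35.8%) of Pklr and Pkm UMIs in the WT erythroid gate and 40.1% (38.4% to 41.8%) in KO, against 0.0849% and 0.196% in cells past no list. By surface gate, this erythroid-gate share was 60.9% (WT) and 55.6% (KO) in CD150+CD48- cells and 56.8% and 54.2% in CD150-CD48- cells. It was 20.4% and 30.2% in CD150+CD48+ cells and 28.5% and 32.8% in CD150-CD48+ cells. CD150+CD48- cells were 12 of 279 erythroid-gate cells in WT and 48 of 347 in KO. The lactate dehydrogenase genes were also unequal. Ldha had 737 against 429 CPM in WT and 753 against 419 CPM in KO, ratios of 0.78 and 0.85, while Ldhb, which encodes the heart-type subunit, had 5.80 against 61.2 CPM in WT and 3.19 against 50.9 CPM in KO.

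Slc16a3 had the highest erythroid ratio of the 10 genes. Its levels were 39.8 against 4.73 CPM in WT and 42.9 against 5.99 CPM in KO, ratios of 3.07 (2.90 to 3.25) in WT and 2.84 (2.67 to 3.02) in KO. Slc16a1, which encodes the lactate carrier MCT1, had ratios of 1.24 and 1.04. Glucose transporter genes were lower in erythroid-gate cells, with Slc2a1 at 8.56 against 14.1 CPM in WT and 9.89 against 15.5 CPM in KO, and Slc2a3 at 11.3 against 19.0 CPM in WT and 12.8 against 23.0 CPM in KO. Of the 10 genes, 3 were at least 1.2-fold higher in the erythroid gate in both libraries (Hk1, Ldha and Slc16a3), beside 22.1% of all genes. By single library the share of all genes was 24.6% in WT and 24.3% in KO, among genes with at least 5 CPM. In WT 5 were at least 1.2-fold lower and in KO 6, beside 43.5% of all genes in WT and 43.8% in KO. Cells of the erythroid gate were deeper, with medians of 53530 and 69332 UMIs against 21913 and 30735 in cells past no list. The part of depth in these ratios was not tested.

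**Figure D2:**
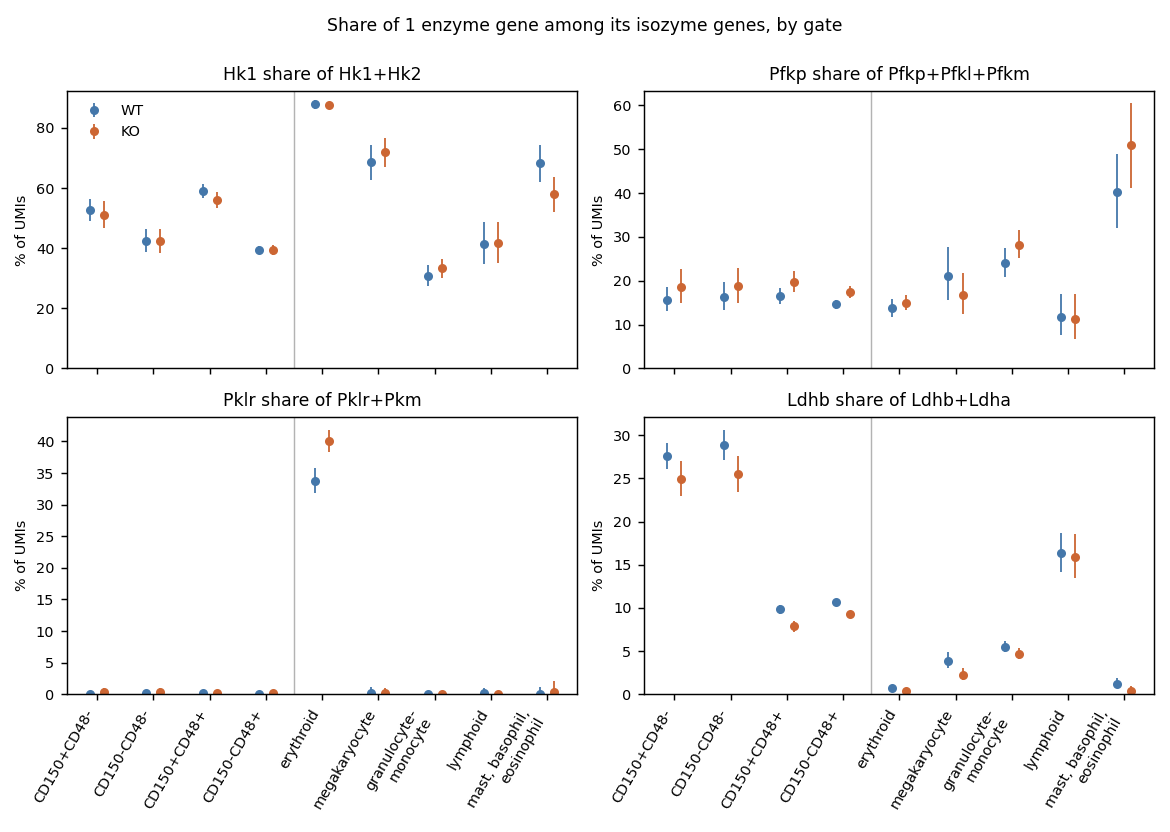
Share of 1 enzyme gene in the UMIs of its isozyme genes (percent), in WT and KO by gate, with exact Clopper-Pearson 95% intervals and axes from 0. Surface gates, left of the grey line, are without lineage-list cells. Of the gates drawn, the Hk1 and Pklr shares are highest in the erythroid gate, the Pfkp share in the mast, basophil and eosinophil gate, and the Ldhb share in CD150+CD48- and CD150-CD48- cells.

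Other pathway genes, from a list of 71, split in the same contrast. Of 49 with at least 5 CPM on average over the gates and libraries compared, 17 were at least 1.2-fold higher in erythroid-gate cells in both libraries and 17 at least 1.2-fold lower in both, beside 22.1% and 40.4% of all genes by the same rule. Of 7 pentose phosphate genes 3 were higher and 0 lower, led by Rpia, ribose 5-phosphate isomerase, at 89.8 against 29.6 CPM in WT and 105 against 36.1 CPM in KO. Among 14 hypoxia genes 8 were lower and 3 higher. Hif1a, the oxygen-regulated HIF1 subunit, had 21.1 against 46.7 CPM in WT and 24.1 against 52.8 CPM in KO. Txnip, which encodes an inhibitor of glucose uptake, had 56.7 against 146 CPM in WT and 74.1 against 206 CPM in KO.

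Promoters of the genes that were higher in the erythroid gate are shown to give their sequence context, not as a feature particular to them. Hk1 spans chr10:62268855-62379920, Ldha chr7:46842274-46855627 and Slc16a3 chr11:120948484-120959000 (GRCm38.p6, the assembly of mm10). RefSeq's promoter table for that assembly matched 9 of the 10 genes, with 12 start sites, and Slc2a3 is named only. Each line gives the 250 bases before a start, 5' to 3' on the gene's strand. Capitals mark the core of the HIF site (ACGTG or GCGTG on either strand, overlapping matches counted as 1 stretch) and GATA sites (GATA preceded by A or T and followed by A or G, on either strand). The windows are chr7:46845554-46845803 (+) for the first Ldha start, chr11:120948817-120949066 (+) for Slc16a3, chr10:62340422-62340671 (-) and chr10:62379909-62380158 (-) for the downstream and the upstream start of Hk1, and chr3:89135892-89136141 (+) for the first Pklr start.
Ldha: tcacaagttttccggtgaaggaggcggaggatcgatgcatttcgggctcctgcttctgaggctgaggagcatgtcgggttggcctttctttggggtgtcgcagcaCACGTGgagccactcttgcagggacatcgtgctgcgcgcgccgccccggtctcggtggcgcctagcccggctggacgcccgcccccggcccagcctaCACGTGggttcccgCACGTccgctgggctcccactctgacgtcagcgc
Slc16a3: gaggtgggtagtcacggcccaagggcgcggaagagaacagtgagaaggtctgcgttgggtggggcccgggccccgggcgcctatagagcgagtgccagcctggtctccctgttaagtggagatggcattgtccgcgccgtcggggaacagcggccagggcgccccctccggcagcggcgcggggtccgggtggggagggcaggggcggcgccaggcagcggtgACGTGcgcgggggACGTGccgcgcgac
Hk1, downstream start: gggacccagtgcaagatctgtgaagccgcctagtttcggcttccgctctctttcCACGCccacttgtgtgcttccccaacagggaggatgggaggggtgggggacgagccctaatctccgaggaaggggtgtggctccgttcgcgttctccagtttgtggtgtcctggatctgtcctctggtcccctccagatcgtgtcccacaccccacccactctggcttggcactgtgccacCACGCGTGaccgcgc
Hk1, upstream start: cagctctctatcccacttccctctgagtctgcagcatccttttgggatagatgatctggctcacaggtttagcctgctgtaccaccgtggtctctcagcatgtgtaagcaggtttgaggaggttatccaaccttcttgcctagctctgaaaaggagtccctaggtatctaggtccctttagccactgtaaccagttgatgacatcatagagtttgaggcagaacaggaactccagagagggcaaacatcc
Pklr: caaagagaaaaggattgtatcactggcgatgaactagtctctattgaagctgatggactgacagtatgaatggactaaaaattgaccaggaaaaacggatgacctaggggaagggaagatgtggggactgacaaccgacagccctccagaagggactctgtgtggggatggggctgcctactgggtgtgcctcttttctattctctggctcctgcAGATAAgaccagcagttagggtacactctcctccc

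The Ldha window held 3 HIF core stretches, of which 2 held the palindrome CACGTG, and the Slc16a3 window held 2, the nearer one 14 bases before the start. At Hk1 the downstream start had 2 and the upstream start none. The Pklr window had no HIF core and 1 GATA match, 35 bases before the start, and the second Pklr window held neither. Windows of genes that were not higher in the erythroid gate held HIF cores too, with 2 at Hk2, 2 at Slc2a1, 3 at Pfkp and 2 at Gapdh. They held GATA matches too, 32 bases before the first Pkm start and 72 bases before the Gapdh start. Of all 32851 promoters of this length, 38.6% held a HIF core, 26.5% a GATA match and 6.02% the palindrome, so the matches describe the letters only. The 3' tags do not show which start a molecule came from.

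The mast, basophil and eosinophil gate (71 WT and 58 KO cells) had the highest Ldha and Slc2a3 of the lineage gates and of the surface gates without lineage-list cells, in both libraries. Ldha had 1124 against 429 CPM in WT and 1057 against 419 CPM in KO, this gate set against cells past no lineage list. Slc2a3 had 51.2 against 19.0 CPM in WT and 54.7 against 23.0 CPM in KO. Pfkp, the platelet-type phosphofructokinase, had 43.4 against 11.2 CPM in WT and 42.0 against 14.7 CPM in KO, and gave 40.3% and 50.9% of phosphofructokinase UMIs, against 15.2% and 18.2%. Cells past the dendritic list, 39 in WT and 23 in KO and otherwise not described, had more, with 51.3 and 71.0 CPM of Pfkp from 42 and 55 UMIs and shares of 59.2% and 69.6%. In each library 7 of the 10 genes were at least 1.2-fold higher in the mast, basophil and eosinophil gate (both transporters, both hexokinases, Pfkp, Ldha and Slc16a3), beside 27.4% of all genes in WT and 25.8% in KO. At least 1.2-fold lower there were 0 in WT and 2 in KO. The share of all genes in that direction is not given, so these counts are not read as a result. The median log2 ratio over all genes in this contrast was -0.15 in WT and -0.24 in KO, beside 1.40 and 0.98 over the 10 genes. Slc2a1 had 37.2 CPM (27.4 to 49.3) in WT and 21.7 CPM (14.6 to 31.2) in KO, from 48 and 29 UMIs.

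The other lineage gates had their own patterns. In the granulocyte-monocyte gate (248 WT and 186 KO cells) Gapdh was at its highest, with 1616 CPM (WT) and 1613 CPM (KO), and Slc2a3 at its lowest, with 8.23 and 9.99 CPM. Hk1 was low there and Hk2 was not, so that the Hk1 share was 30.9% and 33.3%. Against cells past no list, 5 of the 10 genes were at least 1.2-fold higher in WT and 4 in KO, beside 11.7% of all genes in WT and 14.1% in KO. Lymphoid-marker cells (175 and 101) had the lowest Ldha of these gates, with 269 CPM (WT) and 240.4 CPM (KO), and the lowest Pfkp, with 6.70 and 6.24 CPM. Of the 9 genes with at least 5 CPM in this contrast, 7 in WT and 6 in KO were at least 1.2-fold lower than in cells past no list, beside 24% of all genes in WT and 25.5% in KO. Slc16a3 was below that minimum, from 10 and 11 UMIs. Megakaryocyte-marker cells (83 and 65) had more Hk1 than cells past no list, with 78.9 CPM (WT) and 93.7 CPM (KO), and more Ldha, with 726 and 710.4 CPM. Slc2a3, which encodes the GLUT3 transporter, had 23.6 CPM (17.8 to 30.7) in WT and 48.2 CPM (40.2 to 57.2) in KO in this gate, from 55 and 129 UMIs.

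Surface gates were compared mainly without cells past a lineage list, a choice made after the data were seen, because the share of such cells differed between gates. Both glucose transporter genes were higher in CD150+CD48- cells (471 WT and 182 KO cells) than in CD150-CD48+ cells, the most numerous progenitors (2851 and 1142). Slc2a3 had 32.1 against 16.7 CPM in WT and 45.7 against 18.7 CPM in KO, ratios of 0.94 (0.74 to 1.14) in WT and 1.29 (1.05 to 1.52) in KO. Slc2a1, which encodes GLUT1, had 20.2 against 12.1 CPM in WT and 23.7 against 14.2 CPM in KO, ratios of 0.74 and 0.73. Hk1 was higher too, with 53.6 against 31.1 CPM in WT and 61.1 against 36.4 CPM in KO, while Hk2 had 48.1 against 47.9 CPM in WT and 58.5 against 55.8 CPM in KO. With lineage-list cells kept, the ratios were 0.93 and 0.89 for Slc2a3, 0.58 and 0.23 for Slc2a1, 0.90 and 1.40 for Hk1 and -0.11 and -0.50 for Hk2, in WT and KO in turn.

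Gapdh and Ldha were lower in the stem cell gate. Gapdh had 1038 against 1350 CPM in WT and 1008 against 1312 CPM in KO, ratios of -0.38 and -0.38. Ldha had 331 against 424 CPM in WT and 329 against 415 CPM in KO, ratios of -0.36 and -0.34. With lineage-list cells kept, the Ldha ratio was -0.26 and 0.24, so that its direction in KO turned. Ldhb, the other lactate dehydrogenase gene, was higher, with 126 against 50.5 CPM in WT and 109 against 42.3 CPM in KO, and its share of both genes was 27.6% (26.1% to 29.1%) in WT and 25.0% (23.0% to 27.0%) in KO, against 10.6% and 9.24%. Without lineage-list cells, 5 of the 10 genes were at least 1.2-fold higher in the stem cell gate in KO (both transporters, Hk1, Pfkp and Pfkl) and 4 in WT (the same without Pfkl), beside 43.6% of all genes in WT and 43.1% in KO. Gapdh and Ldha alone of the genes with at least 5 CPM were at least 1.2-fold lower, in both libraries, beside 11.3% of all genes. By single library the share of all genes was 14.7% in WT and 15.1% in KO. Slc16a3 had 2.32 against 4.52 CPM in WT and 5.32 against 5.41 CPM in KO, from 18 and 22 UMIs in the stem cell gate.

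CD150-CD48- cells past no lineage list, counted as multipotent progenitors, were close to the stem cell gate in Slc2a3, with 30.0 CPM (WT) and 38.2 CPM (KO), and in the Ldhb share, 28.8% and 25.5%. They had 42.8 and 52.4 CPM of Hk1, and the most Hk2 of the 4 surface gates, with 58.1 and 71.3 CPM. CD150+CD48+ cells past no lineage list had the highest Hk1 of these gates, 56.2 CPM (WT) and 67.0 CPM (KO), and the highest Ldha, 525 and 513 CPM.

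Among the other pathway genes, Aldoc, an aldolase isozyme gene, had 12.9 against 2.78 CPM in WT and 10.9 against 2.46 CPM in KO, CD150+CD48- set against CD150-CD48+. Txnip had 289 against 122 CPM in WT and 359.8 against 179.8 CPM in KO. Vegfa, a HIF target that encodes a vessel growth factor, had 19.2 against 8.79 CPM in WT and 23.7 against 11.9 CPM in KO. Pdk3, whose product is a kinase that switches off pyruvate dehydrogenase, had 51.0 against 27.4 CPM in WT and 46.2 against 29.3 CPM in KO. Pgam1, phosphoglycerate mutase, was lower, with 157 against 259.8 CPM in WT and 134 against 245 CPM in KO. Of 52 pathway genes measured, 17 were at least 1.2-fold higher in both libraries and 10 at least 1.2-fold lower in both, beside 35.9% and 11.3% of all genes by the same rule. Glucose uptake regulators had 4 of 7 higher and 0 lower, and pentose phosphate genes 0 of 7 higher and 3 lower. The other glycolytic enzymes had 3 of 10 higher and 2 lower, and hypoxia genes 5 of 13 higher and 2 lower. Genes for pyruvate and lactate fate had 4 of 13 higher and 2 lower. Hif1a, Aldoc and Pdk3 were named after their values were seen.

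Stem cell gate cells carried fewer cycle transcripts: the summed level of the G2 and M phase list was 1027 CPM in WT and 1439 CPM in KO, against 1635 and 2007 CPM over all cells past no lineage list. Cells low for both the S phase and the G2 and M phase list were therefore compared with each other (344 WT and 116 KO cells in the stem cell gate). The ratio of the stem cell gate over CD150-CD48+ cells was 0.68 (0.42 to 0.93) in WT and 1.08 (0.76 to 1.40) in KO for Slc2a3, 0.89 and 0.80 for Slc2a1, 0.85 and 0.65 for Hk1 and -0.27 and -0.34 for Gapdh. For Ldha it was 0.03 (-0.05 to 0.11) in WT and -0.09 (-0.21 to 0.03) in KO, so a difference between these gates was not detectable among cells low for cycle genes.

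**Figure D3:**
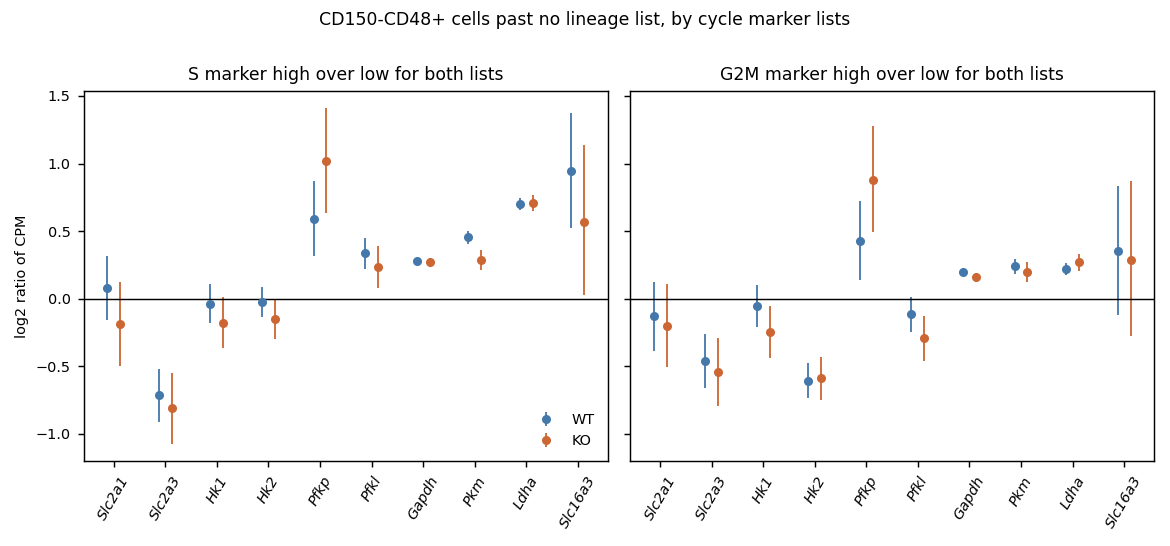
Log2 ratio of CPM of each of the 10 genes in CD150-CD48+ cells past no lineage list, for S phase marker high cells (left) and G2 and M phase marker high cells (right) over cells low for both lists, with 95% counting intervals. Ldha, Pfkp, Gapdh and Pkm lie above 0 and Slc2a3 below 0 in both panels and both libraries.

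Within CD150-CD48+ cells past no lineage list, cells high for S phase markers (1057 in WT, 420 in KO) had more Ldha than cells low for both cycle lists (1107 and 378), with log2 ratios of 0.70 (0.66 to 0.74) in WT and 0.71 (0.65 to 0.77) in KO. Pkm had 0.45 and 0.29, Gapdh 0.28 and 0.27, and Pfkp 0.59 (0.32 to 0.87) in WT and 1.02 (0.64 to 1.41) in KO. Slc2a3 was lower, with -0.72 (-0.91 to -0.52) in WT and -0.81 (-1.08 to -0.55) in KO. In WT 5 of the 9 genes with at least 5 CPM and in KO 5 of 10 were at least 1.2-fold higher in S phase marker cells, beside 22.2% of all genes in WT and 22.8% in KO. Slc2a3 alone was at least 1.2-fold lower, beside 23.2% of all genes in WT and 28.9% in KO. In cells high for G2 and M phase markers the Ldha ratios were smaller, 0.22 and 0.27, and Hk2 was lower, with -0.61 (-0.74 to -0.48) in WT and -0.59 (-0.75 to -0.43) in KO. Median UMIs were 26392 in WT and 36734 in KO for S phase marker cells and 17706 and 24428 for cells low for both, and their part in these ratios was not tested.

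Between genotypes over all LSK cells, Slc16a3, Hk1 and Pfkp, 3 of the 10 genes, were at least 1.2-fold higher in KO and none was at least 1.2-fold lower, beside 12.5% and 4.26% of the 9229 genes with at least 5 CPM. The log2 ratio of KO over WT was 0.79 (0.68 to 0.90) for Slc16a3, 0.56 (0.51 to 0.60) for Hk1 and 0.37 (0.27 to 0.47) for Pfkp. Slc2a3 followed with 0.22, Hk2 with 0.18 and Ldha with 0.13, and Pkm had -0.21 (-0.24 to -0.19). The median over the 10 was 0.15, beside 0.07 over all genes. With the WT shares of the gates given to both libraries, Slc16a3 had 0.24, Hk1 0.23 and Pkm -0.067, so that Slc16a3 and Hk1 were within 1.2-fold, while Pfkp had 0.35. The share of erythroid-gate cells, where Slc16a3, Hk1 and Ldha were high and Pkm low, differed between the libraries as given above. The gates used for these shares had cuts set after the data were seen. The part of the gate shares in the KO over WT ratios was not tested. Over all cells the erythroid markers summed to 122 CPM in WT and 229 CPM in KO, with none of them at 0.

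Among cells past no lineage list the ratios of these genes differed from those over all cells. Hk1 had 38.2 CPM (WT) and 45.5 CPM (KO), a ratio of 0.25 (0.18 to 0.32), and Slc16a3 had 4.73 and 5.99 CPM, a ratio of 0.34 (0.14 to 0.54). Pkm had -0.07 and Ldha -0.03 (-0.06 to -0.01), the latter on the other side of 0 from its value over all cells. Pfkp had 11.2 CPM (WT) and 14.7 CPM (KO), a ratio of 0.39 (0.27 to 0.52), close to that over all cells. In CD150-CD48+ cells of this set low for both cycle lists, Pfkp gave 12.1% (WT) and 10.9% (KO) of phosphofructokinase UMIs. The shares were 14.6% and 17.8% in S phase marker cells and 16.9% and 21.2% in G2 and M phase marker cells. In cells low for both lists Pfkp had 160 of 20886340 gene UMIs (WT) and 74 of 9381900 (KO). It had 336 of 29089264 and 245 of 15342010 in S phase marker cells. In G2 and M phase marker cells it had 244 of 23671883 and 231 of 15950229. Of the CD150-CD48+ cells of this set, 687 of 2851 (WT) and 344 of 1142 (KO) were high for G2 and M phase markers. Over all LSK cells, a wider set, 23.3% (WT) and 31.4% (KO) were. The part of the cycle in the Pfkp ratio was not tested. Slc2a3, with 19.0 and 23.0 CPM, and Hk2, with 46.8 and 56.5 CPM, had ratios of 0.28 (0.18 to 0.37) and 0.27 (0.21 to 0.33). In these cells Slc16a3, Pfkp, Slc2a3 and Hk2, 4 of the 10 genes, were at least 1.2-fold higher and none lower, beside 12.7% and 1.69% of all genes. The erythroid markers summed to 14.0 and 18.6 CPM here.

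**Figure D4:**
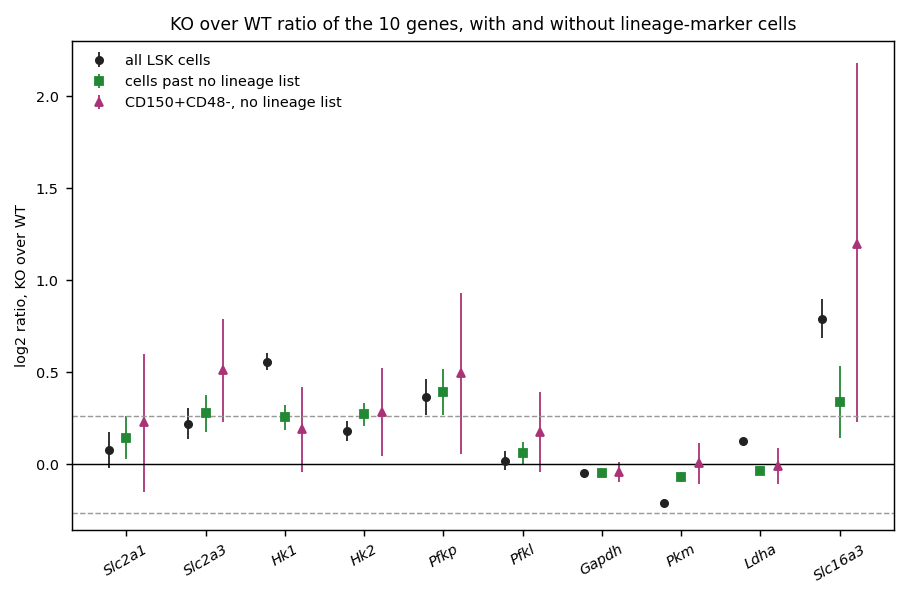
Log2 ratio of KO over WT for each of the 10 genes over all LSK cells, over cells past no lineage list and over CD150+CD48- cells past no lineage list, with 95% counting intervals and dashed lines at 1.2-fold. The ratios of Hk1 and Slc16a3 are 0.56 and 0.79 over all cells and 0.25 and 0.34 over cells past no lineage list, while Pfkp has 0.37 and 0.39.

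Single gates gave values of the same kind. Hk1 had 134 CPM (WT) and 158 CPM (KO) within the erythroid gate, a ratio of 0.23 (0.15 to 0.31), and none of the 10 genes was at least 1.2-fold higher or lower there, beside 16.4% and 3.67% of all genes. Over 9 gates that share no cell (4 surface gates without lineage-list cells and 5 lineage gates), Slc2a3, Hk1 and Hk2 had a ratio above 0 in 9, as did 12.6% of the 7426 genes with at least 5 CPM in every gate. They lay above the median of all genes in 9, 9 and 8 gates, and their counting intervals lay wholly above 0 in 5, 5 and 7 of them. Slc16a3 was above 0 in 8 gates, and Slc2a1 and Pfkp in 7 each, of which Slc2a1 lay above the median of all genes in 4 and Pfkp in 6. Pkm and Ldha were above 0 in 2 gates each and Gapdh in 1, with ratios from -0.28 to 0.03 for Pkm, -0.16 to 0.04 for Ldha and -0.07 to 0.08 for Gapdh. Pfkl was above 0 in 4. All these ratios compare the same pair of libraries, so their number gives no replicate check.

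In CD150+CD48- cells the values with and without lineage-list cells lay far apart. Of the cells in this gate 12 of 492 in WT and 48 of 244 in KO were in the erythroid gate. The erythroid markers summed to 114 and 478 CPM, and neutrophil markers to 4.50 and 364 CPM. With all cells kept, Slc16a3 had 6.35 CPM (WT) and 25.1 CPM (KO), a ratio of 1.98 (1.54 to 2.44), Hk1 had 0.77 (0.62 to 0.93), Ldha 0.51 (0.44 to 0.57) and Pkm -0.45 (-0.55 to -0.35). In the CD201-high cells of this gate Slc16a3 had 2.91 CPM (WT) and 31.1 CPM (KO). Without lineage-list cells Hk1 had 0.19 (-0.04 to 0.42), Ldha -0.01 (-0.11 to 0.09) and Pkm 0.00 (-0.11 to 0.11). The Slc16a3 ratio was 1.2 (0.23 to 2.18), from 18 UMIs in WT and 22 in KO. The erythroid markers summed to 23.2 and 30.2 CPM in these cells, with 1 marker at 0 in each library. In droplets with 100 to 300 UMIs, taken as empty, Slc16a3 had 18.1 CPM (WT) and 31.9 CPM (KO). The part of free RNA and of remaining erythroid transcripts in that ratio was not tested.

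In CD150+CD48- cells past no lineage list, Slc2a3, Pfkp and Hk2 were the genes with at least 5 CPM that were at least 1.2-fold higher in KO. Slc2a3 had 32.1 CPM (28.2 to 36.3) in WT and 45.7 CPM (39.4 to 52.7) in KO, a ratio of 0.51 (0.23 to 0.79). Pfkp had 13.5 and 19.1 CPM, a ratio of 0.50 (0.06 to 0.93), and Hk2 had 48.1 and 58.5 CPM, a ratio of 0.28 (0.04 to 0.52). The intervals of Slc2a1 (-0.15 to 0.60) and Pfkl (-0.04 to 0.39) held 0. Of the 9 genes with at least 5 CPM here, these 3 were at least 1.2-fold higher and none lower, beside 22.8% and 8.01% of all genes.

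Among the 71 other pathway genes, 49 had at least 5 CPM on average over all LSK cells, and 11 of these were at least 1.2-fold higher in KO and 1 lower, beside the 12.5% and 4.26% of all genes given above. Their median ratio was 0.08, beside 0.07 over all genes. Pklr led with 5.52 CPM (WT) and 13.1 CPM (KO), a ratio of 1.25 (1.12 to 1.38), and had 48.7 and 55.4 CPM within the erythroid gate, a ratio of 0.19. Ldhb was lowest, with 51.5 and 35.5 CPM, a ratio of -0.54 (-0.60 to -0.48), and had -0.27 (-0.33 to -0.20) among cells past no lineage list. Pfkm, the muscle-type phosphofructokinase, had 0.32 and Eno1, enolase, 0.20, while Pgam1 had -0.09 and Gpi1, glucose 6-phosphate isomerase, -0.03.

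**Figure D5:**
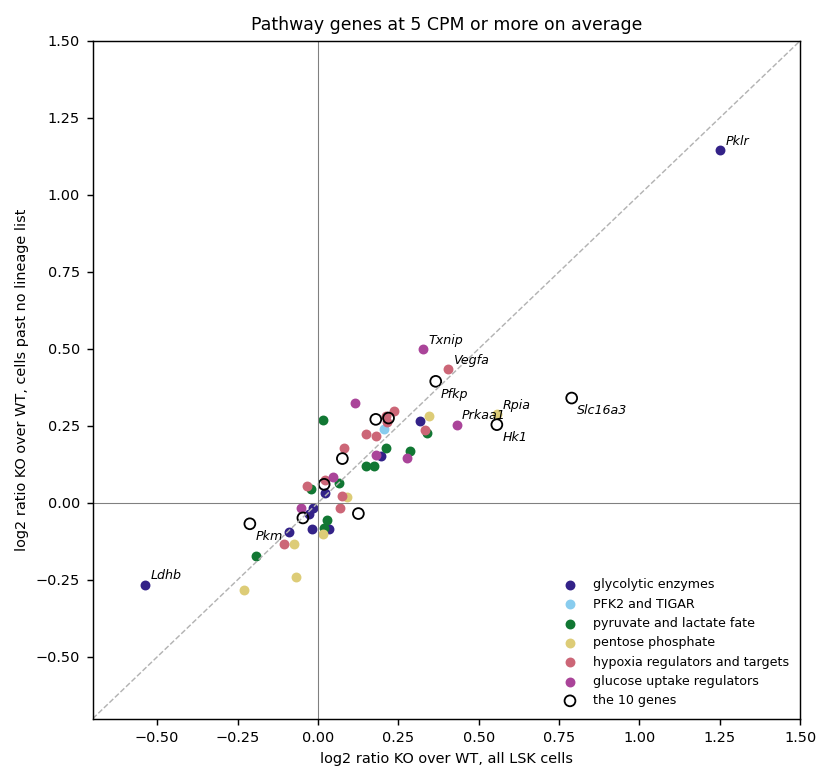
Log2 ratio of KO over WT over all LSK cells (horizontal) and over cells past no lineage list (vertical) for 49 other pathway genes with at least 5 CPM on average, coloured by group, and for the 10 genes (open circles). The dashed line marks equal ratios: Hk1, Slc16a3 and Rpia lie below it, Txnip above it, and Pklr lies farthest from 0 among the other pathway genes.

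Some regulators were higher in KO also without lineage-marker cells. Txnip had 146 CPM (WT) and 206 CPM (KO) among cells past no lineage list, a ratio of 0.50 (0.47 to 0.53), against 0.33 over all cells. Vegfa had 10.4 and 14.1 CPM there, a ratio of 0.43 (0.31 to 0.56), and Hif1an, which encodes the asparagine hydroxylase that limits HIF activity, had 12.9 and 15.9 CPM, a ratio of 0.30. Of 13 measured hypoxia genes 2 were at least 1.2-fold higher over all cells and 4 among cells past no lineage list, with none lower in either, beside 12.5% and 12.7% of all genes higher. Bnip3, a mitophagy receptor gene and HIF target, had 0.33 over all cells and 0.24 among cells past no list, and Egln2, an oxygen-sensing hydroxylase gene, had -0.11 over all cells.

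In the pentose phosphate branch the ratio over all cells was 0.56 for Rpia, 0.34 for G6pdx, the entry enzyme, and 0.09 for Rpe, while Pgls had -0.23, Tkt -0.07 and Taldo1 -0.07. Without lineage-list cells Rpia had 0.29 (0.21 to 0.37), G6pdx 0.28 and Taldo1 -0.24 (-0.27 to -0.21). Of genes for pyruvate and lactate fate, Slc16a1 had 0.34 over all cells, Dlat, the E2 subunit of pyruvate dehydrogenase, 0.29, Pdha1 0.21 and Mpc2, a mitochondrial pyruvate carrier subunit, -0.19. Pfkfb3, the only measured gene of 5 on the list for regulators of fructose 2,6-bisphosphate, had 6.65 CPM (WT) and 7.67 CPM (KO), a ratio of 0.21. Among glucose uptake regulators, the kinase genes Prkaa1 and Akt2 had 0.43 and 0.28.

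Which genes varied most like each of the 10 was described by the Pearson correlation of log2 CPM over 20 points, which are 10 surface and lineage gates in each library. These gates share cells, libraries and depth, so no test was made. Slc2a1 and Slc2a3 had r = 0.76 with each other. Hk1, Ldha and Slc16a3 had r of 0.73 for Hk1 and Ldha, 0.81 for Hk1 and Slc16a3, and 0.76 for Ldha and Slc16a3. Hk2 had 0.70 with Pkm, and Hk1 had -0.69 with Pkm. Among the 3429 genes with at least 20 CPM at every point, the most like Slc2a1 was Cmip (0.94), Slc2a3 Etnk1 (0.95), Hk1 Arl4a (0.97), Hk2 Gyg (0.90), Pfkp Herpud1 (0.95), Pfkl BC005561 (0.85), Gapdh Pgam1 (0.97), Pkm Gmfg (0.93), Ldha Nt5dc2 (0.93) and Slc16a3 Mns1 (0.97). Pgam1 was the only gene of the pathway list among these. Slc16a3 ranged most over the points, 14.8-fold, and Gapdh least, 1.61-fold.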

How the data were processed

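The deposited matrices hold raw UMI counts of genes and of 6 antibody tags for every barcode, with no cell filter by the authors. They were made with Cell Ranger 4, per the file headers, and version 4.0.6 and genome build mm10 are named in the submitters' processing notes. Seurat and DESeq are named there with no step. Cells were barcodes with at least 8178 (WT) or 9992 (KO) gene UMIs, which is 10% of the 99th percentile among the 6000 largest barcodes, with a minimum of 500 genes and a mitochondrial share of no more than 10%. Scrublet in scanpy 1.11.5 marked 2 WT and 7 KO cells, too few to count as a working call, so no doublet was removed. The kept cells held 141419013 and 104358292 gene UMIs.

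Antibody counts were split per library by Otsu's method on log10 counts (scikit-image 0.26.0), at 36.3 and 59.0 UMIs for CD150 and 939 and 1955 for CD48. Lineage cuts, set after the spread of shares was seen, were 3 UMIs per 10000 for erythroid and megakaryocyte, 20 for granulocyte-monocyte, 4 for lymphoid, and 10 for mast, basophil and eosinophil and for dendritic markers, with at least 3 markers seen. Cells past 1 list entered its gate, except dendritic-marker cells, which were only left out. Cycle groups needed 20 UMIs per 10000 of the G2 and M phase list or 15 of the S phase list. UMIs were summed per library and gate. Levels have exact Poisson intervals, shares Clopper-Pearson intervals and ratios exact conditional binomial intervals (scipy 1.17.1). They cover counting error only, and a shared fold of 1.2 marks a difference in place of a test. The code was tested on simulated data. The members and lists were chosen with earlier results of these data known. Of each pathway group, up to 3 genes at either end by the interval bound nearest 0 are named, with any others stated as chosen later. Alternatives covered cell filters, weighting, thinning, free RNA, doublets, scaling, gate shares, antibody cuts and the fold.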

Additional observations from a re-analysis of the deposited data

Results flagged for a closer look

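The KO over WT log2 ratio of 3 of the 10 genes lay wholly on opposite sides of 0 in different gates, by counting error alone, and the difference between the gates was not tested. Slc2a1 had 0.24 (0.08 to 0.39) in CD150-CD48+ cells past no lineage list, from 890 and 579 UMIs in WT and KO, and -0.78 (-1.49 to -0.08) in the mast, basophil and eosinophil gate, from 48 and 29 UMIs. Pfkl had 0.40 (0.07 to 0.74) in the megakaryocyte gate, from 126 and 191 UMIs, and -0.60 (-1.18 to -0.03) in the mast, basophil and eosinophil gate, from 66 and 45 UMIs. Gapdh had 0.076 (0.01 to 0.15) in the lymphoid gate and -0.070 (-0.10 to -0.04) in CD150+CD48+ cells past no lineage list, both within 1.2-fold. Each gate holds 1 library per genotype, and small gates were among those compared.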

How the results depend on the processing

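No paired analysis was possible because each genotype has 1 library, and for the same reason no library could be left out. Of the alternative values of the medians and counts, 34 stayed and 4 moved. A median stayed if it lay within the median bounds of its genes' counting intervals, and a count if within 1.5-fold of the reported count. A count could stay with other genes in it. Median-of-ratios scaling shifted the median of all genes by 0.06. It gave a median KO over WT log2 ratio over all cells of 0.090 for the 10 genes, against 0.15, and of 0.017 for the other pathway genes, against 0.081. It also turned Pfkl from 0.02 to -0.044, so no direction is given for that gene. Thinning each cell to 8000 UMIs moved the median of the 10 genes in all CD150+CD48- cells from 0.081 to 0.35. At 1.5-fold, 1 gene (Slc16a3) was higher in KO in place of 3. Among values of single genes, 183 stayed, 61 moved and 6 reversed. With the WT shares of the gates given to both libraries, the ratio over all cells was 0.24 for Slc16a3, against 0.79, and 0.23 for Hk1, against 0.56, both under 1.2-fold. The 3 genes past 1.2-fold were then Pfkp, Slc2a3 and Hk2. With lineage-list cells left out, Hk1 had 0.25, also under 1.2-fold, and Slc16a3 0.34. The Ldha ratio over all cells was -0.019 with the WT shares and -0.035 with lineage-list cells left out, an alternative chosen after seeing the data, against 0.13. For CD150+CD48- over CD150-CD48+ cells in KO, leaving out lineage-list cells gave 0.067 for Hk2, -0.34 for Ldha and -0.025 for Slc16a3, against -0.50, 0.24 and 1.59, and thinning gave -0.00127 for Ldha. The cause of the thinning and scaling differences was not tested. Low UMI counts limit Slc16a3 in the stem cell gate. The mast, basophil and eosinophil gate had 71 WT and 58 KO cells, which limits genes such as Slc2a1 (48 and 29 UMIs) and Pfkl (66 and 45 UMIs).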

Other observations

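The antibody counts of CD34, Sca1 and CD117 (c-Kit), which are read apart from the RNA, were set beside the levels of the 10 genes. Cells were ranked within each library and the upper tercile set against the lower, over all LSK cells. For CD34, Hk1 had log2 ratios of -1.35 and -1.76 in WT and KO, Slc16a3 -1.56 and -1.68, Ldha -0.34 and -0.56 and Pkm 0.59 and 0.91, while the other 6 lay between -0.23 and 0.51. For Sca1, Slc2a3 had 0.75 and 0.69, Slc2a1 0.46 and 0.36, Ldha -0.47 and -0.62 and Slc16a3 -1.42 and -1.15. The other 6 lay between -0.72 (Hk1 in KO) and 0.49 (Pkm in WT). For CD117, Hk1 had 0.61 and 1.02, Slc16a3 0.94 and 1.30, Slc2a3 -0.47 and -0.58 and Hk2 -0.58 and -0.51, while the other 6 lay between -0.44 and 0.50. The upper CD117 tercile was deeper, with median UMIs of 31746 and 48931 against 18151 and 23728, and the part of depth and of erythroid-gate cells in these ratios was not tested.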
